A study of Homo sapiens with 12 samples.

Results

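The D cyclins, their partner kinases CDK4 and CDK6, the inhibitors of these kinases and the retinoblastoma gene RB1 were followed in D283 cells, a human medulloblastoma line, with ABL1 and ABL2 inactivated or with a scrambled control. The genes were taken by name: CCND1, CCND2, CCND3, CDK4, CDK6, CDKN1A, CDKN1B, CDKN1C, CDKN2C and RB1, which are 10 of the 49651 genes with count values (zeros included). Enriched mRNA was sequenced from 3 inactivated libraries and 3 control libraries, each run on 2 lanes that were summed. Both groups share the line and its medium, and the sources used here do not say how the genes were inactivated, whether the cells are 1 clone or a pool, or whether the libraries of a group are separate cultures. The p-values therefore measure the spread between these libraries alone, which may be technical.

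D-type cyclins bind CDK4 or CDK6, and the active kinases phosphorylate the RB1 protein, which releases E2F factors and lets cells pass from G1 into S phase. The CIP/KIP proteins, encoded by CDKN1A (p21), CDKN1B (p27) and CDKN1C (p57), bind cyclin-CDK complexes, whereas INK4 proteins such as p18, encoded by CDKN2C, bind CDK4 and CDK6 themselves. In the cerebellum, CCND2 and CDK6 are known for roles in neural progenitors and in medulloblastoma.

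Libraries held 34292341 to 49034159 counts in the inactivated group and 33505903 to 35893081 in the control group. ABL1 averaged 61.9 ± 0.625 CPM (counts relative to library size, scaled by the trimmed mean of M values or TMM) in inactivated cells and 153 ± 4.82 CPM in control cells, and ABL2 averaged 104 ± 7.598 CPM in inactivated and 138 ± 5.58 CPM in control cells (SD, n = 3 per group here and throughout). Of 8 Group 3 medulloblastoma and neural markers, 8 reached 1 CPM, with a summed level of 2759 to 2872 CPM in inactivated and 2166 to 2239 CPM in control libraries. Within this list OTX2, NEUROD1 and PROM1 had lower means in inactivated than in control cells, and MYC, IMPG2, CRX, MAB21L2 and NES higher ones. OTX2 averaged 666 CPM in inactivated and 830 CPM in control cells, and IMPG2 316 CPM in inactivated and 66.7 CPM in control cells. The 5 haematopoietic markers summed to 0.492 to 0.968 CPM in inactivated and 0.691 to 1.14 CPM in control libraries, with CD3E at 0 counts. The 5 fibroblast markers summed to 33.4 to 36.9 CPM in inactivated and 42.7 to 46.2 CPM in control libraries, and the 4 endothelial markers to 9.66 to 11.02 CPM in inactivated and 4.12 to 4.46 CPM in control libraries. Members of these lists moved apart: KDR averaged 8.41 CPM in inactivated and 2.22 CPM in control cells while VWF averaged 1.86 CPM in inactivated and 2.01 CPM in control cells, with PECAM1 and CDH5 below 0.1 CPM. COL1A1 averaged 15.1 CPM in inactivated and 8.11 CPM in control cells, and PDGFRB 18.9 CPM in inactivated and 32.8 CPM in control cells. The part of these markers in the results below was not tested. In bulk RNA, fewer cells of a type and less RNA per cell cannot be told apart.

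Of the 10 genes, 8 had enough counts to be tested, and 6 of them fell, 1 rose and 1 did not pass. The genes that fell were CCND2, CDK4, CDKN1A, CDKN1B, CDKN2C and RB1, the gene that rose was CCND3, and CDK6 did not pass. Calls were made with edgeR's quasi-likelihood test at an adjusted p under 0.05 (Benjamini-Hochberg over 14704 genes). In this comparison 59.3% of all tested genes were called, 29.6% of all tested genes higher and 29.7% lower, so 7 calls among 8 genes stand against a high background. For 7 of the 8 genes the libraries of the groups did not overlap in CPM, against 63.2% of all tested genes. Changes of at least 1.5-fold were called for 3 of the 8, CCND2, CCND3 and CDKN1A, against 24.0% of all genes. The median log2 fold change of the 8 genes was -0.30, and that of all tested genes 0.00307.

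**Figure D1:**
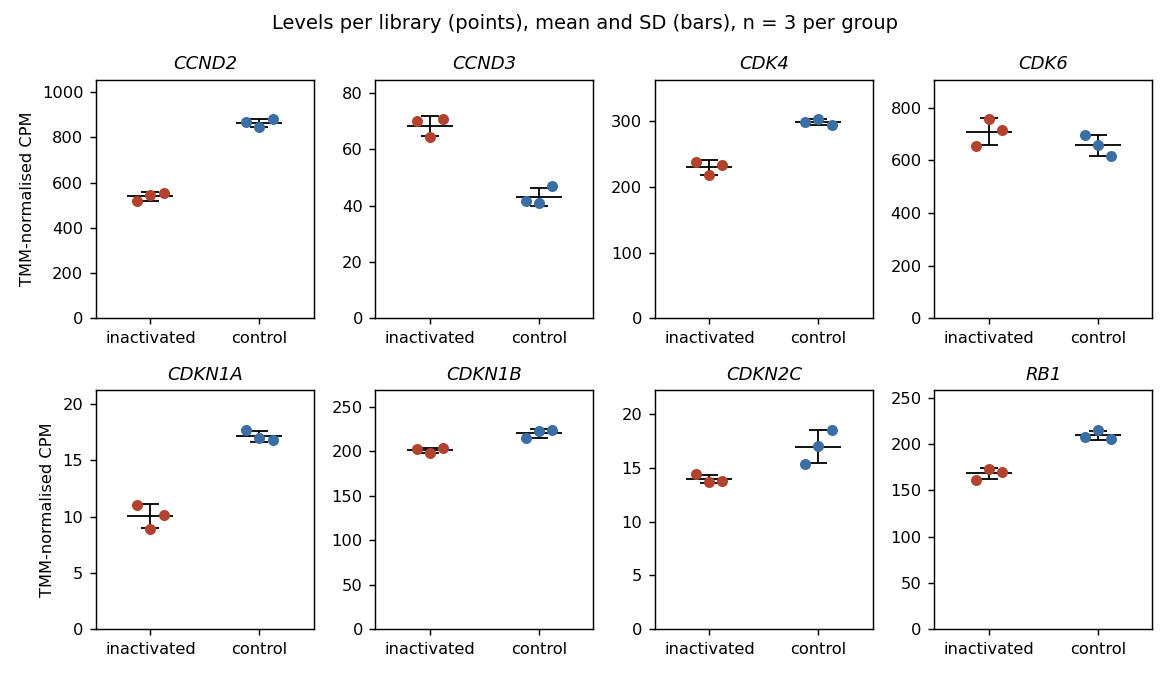
TMM-normalised CPM (vertical axis, linear, from 0) of the 8 tested genes in 3 inactivated libraries (left, red points) and 3 control libraries (right, blue points), with bars for the mean and SD. The groups are separate in every panel but that of CDK6, and only in the panel of CCND3 are the inactivated libraries the higher ones.

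The start regions of a D cyclin that rose (CCND3), a kinase that fell (CDK4) and an inhibitor that fell (CDKN1A) are shown first. These genes were picked from the 3 families below and do not stand for the other members. The windows used here included none of CCND1, CCND2 or CDKN1C. The regions shown are RefSeq windows of 300 bases (GRCh38.p14) around a transcript start. Of several windows a gene has, the one with most GENCODE starts within 50 bases was taken. Capitals mark the E-box CACGTG, which MYC and MAX bind, and the GC box GGGCGG, which SP1 binds, on either strand.
CCND3, chr6:42048639-42048938, minus strand: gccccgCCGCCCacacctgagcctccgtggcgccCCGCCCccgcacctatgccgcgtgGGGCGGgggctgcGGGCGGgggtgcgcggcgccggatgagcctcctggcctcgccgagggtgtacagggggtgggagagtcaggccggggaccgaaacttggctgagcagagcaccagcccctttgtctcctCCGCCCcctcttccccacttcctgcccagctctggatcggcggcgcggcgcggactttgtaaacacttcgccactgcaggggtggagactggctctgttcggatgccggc
CDK4, chr12:57752261-57752560, minus strand: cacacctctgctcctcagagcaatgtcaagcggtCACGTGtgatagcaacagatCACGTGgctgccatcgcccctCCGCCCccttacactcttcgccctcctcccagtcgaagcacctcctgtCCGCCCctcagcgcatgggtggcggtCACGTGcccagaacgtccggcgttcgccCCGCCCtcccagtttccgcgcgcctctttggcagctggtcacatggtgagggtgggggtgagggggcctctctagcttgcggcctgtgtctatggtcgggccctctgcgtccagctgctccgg
CDKN1A, chr6:36678464-36678763, plus strand: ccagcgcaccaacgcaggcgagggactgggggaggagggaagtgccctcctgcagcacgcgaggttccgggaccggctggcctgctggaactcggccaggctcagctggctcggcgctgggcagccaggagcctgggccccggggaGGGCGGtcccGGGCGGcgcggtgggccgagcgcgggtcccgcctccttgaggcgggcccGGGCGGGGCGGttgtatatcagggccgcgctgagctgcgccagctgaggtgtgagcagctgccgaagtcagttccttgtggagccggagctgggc
The CDK4 window held 3 E-boxes and 3 GC boxes, the CCND3 window 0 and 5, and the CDKN1A window 0 and 4, of which a pair overlap. Among 35116 such windows in the genome 7.26% held an E-box and 0.094% held 3 or more, while 44.95% held a GC box and 15.8% held 3 or more. The CCAAT box and the E2F motifs TTTGGCGC and TTTCGCGC, searched on both strands, gave no match in these windows, and 34.6% and 1.15% of all windows held them. These motifs were chosen after the sequences had been seen, and a match is a stretch of letters, not a shown binding site.

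Among the D cyclins, CCND2 fell and CCND3 rose. CCND2 (chromosome 12, 4273762 to 4305353, plus strand, in GRCh38.p14 here and below) had 518, 543 and 556 CPM in inactivated libraries, against 869, 845 and 879 CPM in control libraries. Every inactivated library lay well below every control library. Its mean was 539 ± 19.4 CPM in inactivated cells and 865 ± 17.7 CPM in control cells, a log2 fold change of -0.68 ± 0.043 (SE, 95% interval -0.77 to -0.59, edgeR adjusted p = 1.06e-10), so that it fell by 37.6%.

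CCND3 (chromosome 6, 41934933 to 42048894, minus strand) had 69.99, 64.3 and 70.6 CPM in inactivated libraries, against 41.6, 40.98 and 46.9 CPM in control libraries. The lowest inactivated library stood above the highest control library. The means were 68.3 ± 3.50 CPM in inactivated and 43.2 ± 3.22 CPM in control cells, with a log2 fold change of 0.66 ± 0.056 (95% interval 0.54 to 0.78, edgeR adjusted p = 6.18e-09), which is 1.58-fold. CCND3 lies on chromosome 6, where the median log2 fold change over 459 genes of at least 5 CPM was 0.50. Its 20 nearest such genes, from 39329990 to 42979181, had a median of 0.64 (quartiles 0.37 to 0.82), and 18 of them rose and 0 fell, so that CCND3 differed from that median by 0.026 in log2 and 11 of the 20 lay below it. The difference was 0.12 with 20 genes on either side (26 of 40 below CCND3) and 0.11 with 40 on either side (52 of 80 below).

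CCND1 was close to absent from both groups. It had 10, 4 and 4 counts in inactivated libraries, against 1, 1 and 0 counts in control libraries, and its highest level was 0.273 CPM. At these depths a count of 0 allows up to 3 counts, or 0.0612 to 0.0895 CPM. Summed over the libraries, 18 counts in the inactivated group and 2 counts in the control group gave a ratio of 7.86 with an exact 95% counting interval of 1.88 to 69.9, which covers counting error only. Tested without the filter on low counts, its log2 fold change was 2.77 ± 0.97 (edgeR adjusted p = 0.0145), a value that depends on the prior count. Unlike CDKN1C, described below with the inhibitors, CCND1 had no further entry on an alternate locus.

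Levels of different genes can be compared only per length, so counts were divided by exon length and scaled to the same total in each library (TPM). The D cyclins together had 290.5, 302 and 307 TPM in inactivated libraries, against 406, 401 and 411 TPM in control libraries. These sums do not overlap, and their mean was 299.9 ± 8.46 TPM in inactivated and 406 ± 5.44 TPM in control cells (ratio 0.739). CCND2 made up 79.1% ± 1.12 of the summed TPM in inactivated cells and 90.6% ± 0.501 in control cells. The log2 ratio of CCND2 to CCND3 counts, which no scaling between libraries can change, was 2.98 ± 0.096 in inactivated and 4.33 ± 0.084 in control cells, a difference of -1.34. For the sums and shares in TPM and the count ratios here and below, exact two-sided permutation tests over the 6 libraries each gave p = 0.1, the smallest p that 3 against 3 libraries allow.

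**Figure D2:**
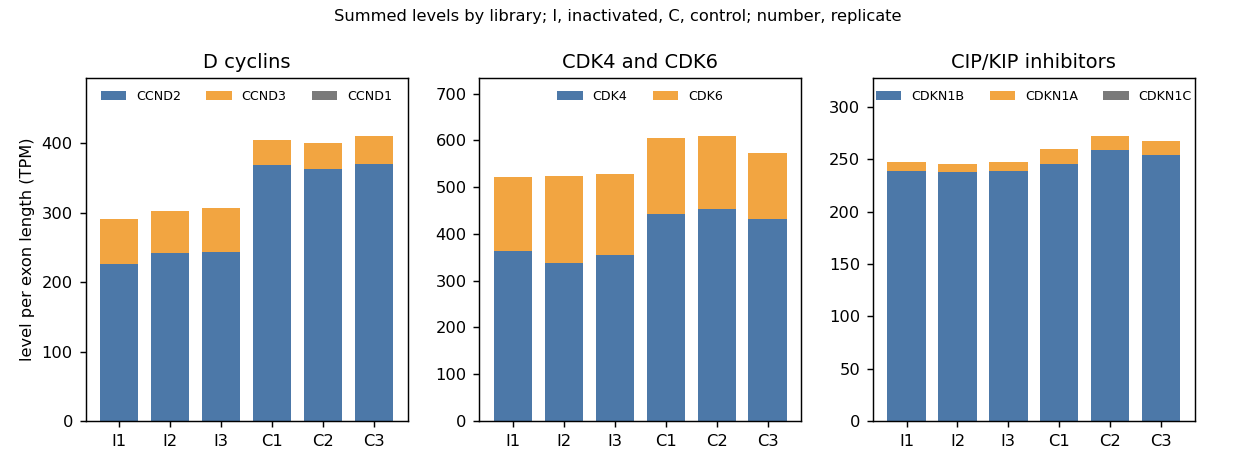
Summed TPM (vertical axis, level per exon length, from 0) of the D cyclins, of CDK4 and CDK6 and of the CIP/KIP genes in each inactivated (I1 to I3) and control (C1 to C3) library, with colours for the genes. In the first panel the inactivated bars reach 290.5 to 307 TPM and the control bars 401 to 411 TPM. The CCND3 part is larger in the inactivated bars than in the control bars, and CCND2 makes up most of each bar.

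Of the partner kinases, CDK4 fell and CDK6 did not pass. CDK4 (chromosome 12, 57747727 to 57752310, minus strand) had 239, 218 and 234 CPM in inactivated libraries, against 299, 303 and 294 CPM in control libraries. All inactivated libraries were below all control libraries. The means were 229.98 ± 10.9 CPM in inactivated and 299 ± 4.55 CPM in control cells, with a log2 fold change of -0.38 ± 0.043 (95% interval -0.47 to -0.29, edgeR adjusted p = 4.18e-07). Its start region is the one with 3 E-boxes above, and MYC, which binds this motif, averaged 526 ± 29.1 CPM in inactivated and 482 ± 19.2 CPM in control cells (log2 fold change 0.13 ± 0.048, edgeR adjusted p = 0.0289). MYC is named for this motif, after its value had been seen, and its part in the level of CDK4 was not tested. The motif also occurred in windows of other members. A window of CDK6 (chr7:92836524-92836823) and one of CDKN2C (chr1:50960495-50960794) held 1 E-box each. Under the rule above, each tied with another window of its gene that held 0. These were chr7:92833910-92834209 for CDK6 and chr1:50968456-50968755 for CDKN2C, the latter at the gene start given below. The only CDKN1B window held 0, but it had 0 GENCODE starts within 50 bases. The only RB1 window (chr13:48476200-48476499) held 0 and lies far inside the gene. The region at the RB1 start, 48303751, was thus not searched.

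CDK4 shares 1078 bases, 57.8% of its exon length, with TSPAN31, a tetraspanin gene on the other strand. The sources used here do not state the strand setting of the counting, so reads from these bases cannot be assigned to either gene with certainty. TSPAN31 averaged 12.4 ± 0.522 CPM in inactivated and 9.89 ± 1.21 CPM in control cells and rose (log2 fold change 0.32 ± 0.086, edgeR adjusted p = 0.00338), the opposite direction to CDK4.

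CDK6 (chromosome 7, 92604921 to 92836573, minus strand), the gene with the longest exon length of the 10, had 654, 756 and 717 CPM in inactivated libraries, against 697, 660.2 and 616 CPM in control libraries. The lowest inactivated library lay below 2 of the control libraries. Its means were 709 ± 51.3 CPM in inactivated and 658 ± 40.6 CPM in control cells, with a log2 fold change of 0.11 ± 0.055 (edgeR adjusted p = 0.0977) and a 95% interval from -0.0066 to 0.22. The call for CDK6 turned on single libraries, with adjusted p = 0.0102 without inactivated replicate 1 and 0.0337 without control replicate 1. CDK6-AS1, which shares 0.685% of the CDK6 exon bases on the other strand, had 4.51 ± 0.467 CPM in inactivated and 4.15 ± 0.0629 CPM in control cells and did not pass.

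Per length, CDK4 was the more abundant kinase in both groups, with 352 ± 12.9 TPM against 171 ± 13.97 TPM for CDK6 in inactivated cells, and 443 ± 11.6 TPM against 154 ± 10.2 TPM in control cells. In CPM the order was the reverse, so it rests on the exon lengths, 11820 bases for CDK6 and 1865 for CDK4. These lengths cover all listed exons, and it was not tested which transcripts of CDK4 and CDK6 the cells use. CDK6 made up 32.7% ± 2.596 of the sum of both in inactivated and 25.8% ± 1.02 in control cells, with no overlap between the groups. The sum itself was 524 ± 3.32 TPM in inactivated and 596 ± 19.8 TPM in control cells. Summed in CPM, where the long CDK6 mRNA weighs more, the groups overlapped, with a difference of -17.5 CPM (exact two-sided permutation test, p = 0.6). The log2 ratio of CDK4 to CDK6 counts differed by -0.49, from means of -1.62 ± 0.17 in inactivated and -1.14 ± 0.077 in control cells.

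All 3 inhibitor genes with enough counts fell. CDKN1A (chromosome 6, 36676463 to 36687332, plus strand), a target of p53, had 11.05, 8.91 and 10.1 CPM in inactivated libraries, against 17.7, 16.96 and 16.8 CPM in control libraries. The groups were far apart for a gene of 347 to 629 counts per library. The means were 10.03 ± 1.07 CPM in inactivated and 17.2 ± 0.479 CPM in control cells, with a log2 fold change of -0.78 ± 0.079 (95% interval -0.95 to -0.62, edgeR adjusted p = 7.15e-08), in size the largest among the 8 tested genes. Its 20 nearest genes on chromosome 6, from 35468401 to 38154624, were centred on a log2 fold change of 0.41 (median), and 14 of them rose and 3 fell. The log2 fold change of CDKN1A minus that median was -1.19, a fold of 0.437, and 1 of the 20 neighbours was lower.

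CDKN1B (chromosome 12, 12717368 to 12722369, plus strand) had 202, 198 and 203 CPM in inactivated libraries, against 215, 223 and 224 CPM in control libraries. The groups did not overlap, but they were close. Its log2 fold change was -0.13 ± 0.0400 (95% interval -0.22 to -0.047, edgeR adjusted p = 0.00865), so that it fell by 8.69%. Between the 2 genes, the log2 ratio of CDKN1A to CDKN1B counts was -4.33 ± 0.14 in inactivated and -3.68 ± 0.074 in control cells, lower in every inactivated library, with a difference of -0.65.

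CDKN2C (chromosome 1, 50968706 to 50974634, plus strand) had 14.4, 13.7 and 13.8 CPM in inactivated libraries, against 15.4, 17.1 and 18.5 CPM in control libraries. The highest inactivated library came within about 1 CPM of the lowest control library. Its log2 fold change was -0.28 ± 0.073 (95% interval -0.44 to -0.13, edgeR adjusted p = 0.00267). Of its exon bases 54.5% are shared with LOC124904176 on the other strand, which had 34 counts in the inactivated group and 45 in the control group.

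CDKN1C could not be assessed. It had 0 counts in every inactivated library, against 0, 1 and 1 counts in control libraries. The table lists a further entry for it on an alternate locus with the same exon length of 1940 bases and 0 counts. Of 799 protein-coding genes with such a copy, 88.2% had under 10 counts over all libraries, against 26.03% of 17951 genes without a copy. The treatment of reads that align to both places is not stated in the sources used here.

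Of CDKN1A and CDKN1B, the CIP/KIP genes that could be assessed, CDKN1B held nearly all mRNA per length. It had 239 ± 0.563 TPM in inactivated and 253 ± 6.81 TPM in control cells. CDKN1A held 3.42% ± 0.321 of the summed CIP/KIP TPM in inactivated and 5.25% ± 0.257 in control cells. The sum was 247 ± 1.0991 TPM in inactivated and 267 ± 6.59 TPM in control cells, a ratio of 0.927. CDKN1C entered these sums with its listed counts, so the sums and shares leave out any CDKN1C mRNA that those counts miss.

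RB1 (chromosome 13, 48303751 to 48481890, plus strand), whose protein the D cyclin kinases phosphorylate, had 161, 173 and 170.3 CPM in inactivated libraries, against 208, 215 and 206 CPM in control libraries. The groups were apart, with every inactivated library lower. The means were 168 ± 6.37 CPM in inactivated and 209.7 ± 4.78 CPM in control cells, and the log2 fold change was -0.32 ± 0.042 (95% interval -0.41 to -0.23, edgeR adjusted p = 2.95e-06).

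The neighbours of the genes away from chromosome 6 had medians near 0. The median log2 fold change of the 20 nearest genes was -0.084 for CCND2, -0.0199 for CDK4, 0.029 for CDK6, -0.026 for CDKN1B, 0.068 for CDKN2C and -0.011 for RB1. Relative to these medians, the log2 fold change was -0.60 for CCND2, -0.36 for CDK4, -0.31 for RB1, -0.35 for CDKN2C and -0.11 for CDKN1B. For CDKN2C the difference depended on the window, with -0.27 for 20 and -0.18 for 40 genes on either side, where the median of its neighbours was -0.10. The part of the neighbourhood in the change of CCND3 was not tested.

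**Figure D3:**
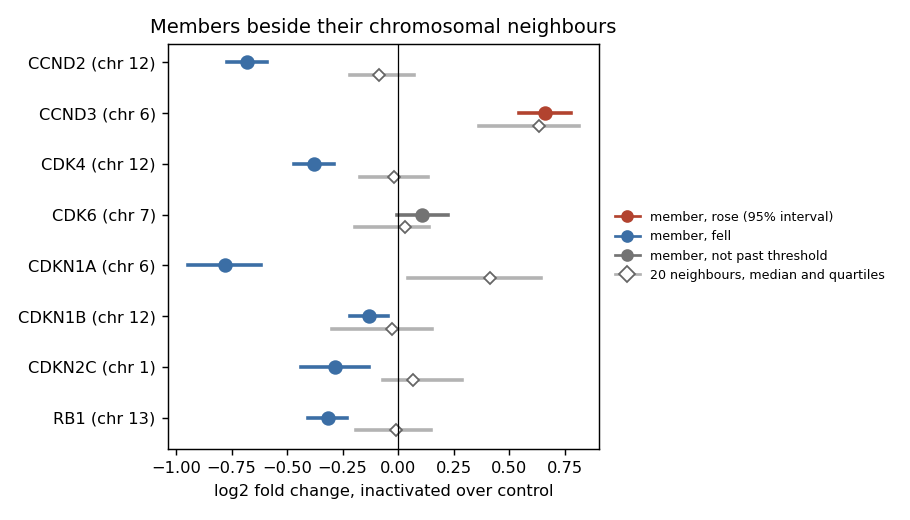
Log2 fold change, inactivated over control (horizontal axis), of the 8 tested genes as points with 95% intervals, and beneath each the median (open diamond) and quartiles (grey line) of its 20 nearest genes of at least 5 CPM on the same chromosome. CCND3 at 0.66 lies on its neighbours' median of 0.64, while CDKN1A at -0.78 lies on the other side of 0 from its neighbours' median of 0.41.

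Ordered by TPM, the inactivated cells had CDK4 (352 ± 12.9) first, then CDKN1B (239 ± 0.563) and CCND2 (237 ± 9.22), whose libraries overlap, then CDK6 (171 ± 13.97), RB1 (101 ± 4.66), CCND3 (62.5 ± 2.495), CDKN2C (18.2 ± 0.443) and CDKN1A (8.46 ± 0.824). In control cells CCND2 (368 ± 3.43) stood clear above CDKN1B (253 ± 6.81), and the rest of the order was the same, with RB1 at 121 ± 4.15, CCND3 at 38.2 ± 2.4997, CDKN2C at 21.4 ± 1.90 and CDKN1A at 13.98 ± 0.417. CCND2 and CDKN1B were thus the pair of neighbours whose spread decided the order, apart in control and not in inactivated cells.

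The genes most like the 3 with the largest changes were sought by Pearson's r of log2 CPM over the 6 libraries, among 10138 other genes of at least 5 CPM in 1 of the groups. The libraries form 2 groups, so r mainly follows the difference between them and is a description. For CCND2, LRRC38 (0.9995) and MAMLD1 (0.9994) were among the genes with the highest r, and PLCB2 had the lowest (-0.9996). For CCND3 the highest were COQ8A (0.9997), TP53I11 (0.9991) and IFITM1 (0.9989), and for CDKN1A TRAPPC9 (0.998), MARVELD1 (0.998) and SAP30 (0.998). An r over 0.99 in size was reached by 921 genes for CCND2, 207 for CCND3 and 162 for CDKN1A.

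Other genes of the G1/S machinery moved both ways. Among 13 tested G1/S cyclins, kinases and pocket proteins, 3 were called higher and 5 lower (61.5% called, against 59.3% of all tested genes), and the median log2 fold change was 0.035 against 0.00307 over all genes. RBL2, the pocket protein p130 and a relative of RB1, rose to 31.2 ± 0.0289 CPM in inactivated cells, against 22.96 ± 0.877 CPM in control cells. CCNE1, the cyclin that activates CDK2 after the D cyclins, rose to 46.95 ± 1.24 CPM in inactivated cells, against 38.1 ± 0.5097 CPM in control cells. The CDK-activating phosphatases CDC25A and CDC25B fell, CDC25A to 114 ± 3.59 CPM in inactivated cells, against 156 ± 2.91 CPM in control cells, and CDC25B to 189.8 ± 6.99 CPM in inactivated cells, against 269.7 ± 6.88 CPM in control cells. CDK7, with 92 counts in all, is listed with a copy on an alternate locus like CDKN1C, so its level cannot be read.

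The other CDK inhibitors were all called, 1 higher and 3 lower of 4, at low levels in 3 of them. That is 100% called, against 59.3% of all tested genes. With lane 1 alone or lane 2 alone, 3 of the 4 were called. CDKN2A, which encodes p16 and p14ARF, fell to 0.731 ± 0.0323 CPM in inactivated cells, against 2.51 ± 0.131 CPM in control cells, and CDKN2B (p15) to 0.228 ± 0.0299 CPM in inactivated cells, against 0.5899 ± 0.0622 CPM in control cells. CDKN2D (p19) rose to 2.86 ± 0.320 CPM in inactivated cells, against 1.51 ± 0.232 CPM in control cells. CDKN3, a phosphatase that acts on CDKs and is expressed in cycling cells, fell to 42.5 ± 1.63 CPM in inactivated cells, against 69.6 ± 2.69 CPM in control cells.

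Genes for the turnover of D cyclins and p27 were called in 10 of 17 cases, 2 higher and 8 lower, with a median of -0.075. That is 58.8%, close to the 59.3% of all tested genes. SKP1 and CUL4A, subunits of ubiquitin ligases, had log2 fold changes of -0.95 ± 0.046 and -0.74 ± 0.039, and FBXW8, an F-box protein reported to bind cyclin D1, of -0.80 ± 0.063. USP2, a deubiquitinase reported to act on cyclin D1, rose with 0.80 ± 0.054. SKP2, the F-box protein for p27, had 163 ± 3.77 CPM in inactivated and 169 ± 3.51 CPM in control cells, and AMBRA1, the receptor that directs D cyclins to the CUL4 ligase, 102 ± 2.24 CPM in inactivated and 98.9 ± 3.76 CPM in control cells, and neither passed. SKP2 and AMBRA1 were chosen for their roles after their values had been seen.

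Genes that E2F factors switch on once RB1 is phosphorylated did not move one way. Among 22 tested, 7 were called higher and 8 lower (68.2% called, against 59.3% of all tested genes), around a median of -0.017. E2F8, an E2F repressor, rose to 22.5 ± 0.283 CPM in inactivated cells, against 6.78 ± 0.581 CPM in control cells, the largest change of the list. TK1, a thymidine kinase, rose to 92.5 ± 5.43 CPM in inactivated cells, against 63.6 ± 3.25 CPM in control cells, and E2F3 rose with a log2 fold change of 0.46 ± 0.042. TK1 lies on chromosome 17 and E2F3 on chromosome 6, whose genes had medians of 0.37 and 0.50. MCM5, part of the replicative helicase, fell to 157 ± 7.13 CPM in inactivated cells, against 215 ± 3.601 CPM in control cells.

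Targets of p53, the list that CDKN1A belongs to by its regulation, were more often lower than higher. Among 19 tested, 12 were called lower and 4 higher (84.2% called, against 59.3% of all tested genes, and 63.2% lower, against 29.7%), and their median was -0.16. PHLDA3, an AKT inhibitor, fell to 1.46 ± 0.133 CPM in inactivated cells, against 4.62 ± 0.742 CPM in control cells, and XPC, a DNA damage sensor, had a log2 fold change of -0.51 ± 0.047. POLH, a translesion polymerase on chromosome 6, rose with 0.88 ± 0.053, and TP53INP1 rose with 0.65 ± 0.055. PHLDA3 lies on chromosome 1, XPC on chromosome 3 and TP53INP1 on chromosome 8. The median log2 fold change was 0.023 for genes of chromosome 1, -0.10 for chromosome 3, -0.078 for chromosome 8 and 0.50 for chromosome 6.

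Of 15 tested transcription factors that act on these genes, 5 were called higher and 5 lower (66.7% called, against 59.3% of all tested genes), and their median was -0.10. FOXO1, which activates CDKN1B in other cell types, fell to 19.9 ± 1.84 CPM in inactivated cells, against 33.8 ± 1.02 CPM in control cells, while FOXO4 rose to 7.85 ± 0.208 CPM in inactivated cells, against 5.21 ± 0.269 CPM in control cells. TCF7L2, a WNT effector, had a log2 fold change of -0.60 ± 0.054. STAT5B, which lies on chromosome 17, had one of 0.83 ± 0.0501.

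**Figure D4:**
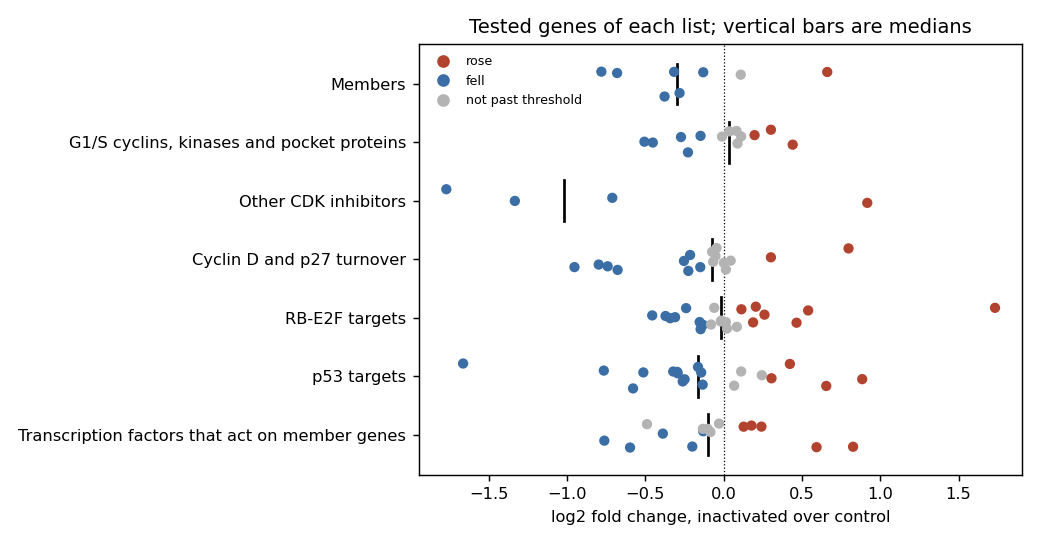
Log2 fold change, inactivated over control (horizontal axis), of every tested gene of each list as a point, red for genes that rose, blue for genes that fell and grey for genes not past the threshold, with vertical bars for medians. The members' median of -0.30 lies left of 0, and the RB-E2F targets spread to both sides of a median of -0.017.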

How the data were processed

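The values deposited by the authors are raw counts per gene and lane, which were not normalized. Per the submitters' processing notes, the tools were STAR 2.7.2b and featureCounts 1.6.3 on GRCh38.p14, with DESeq2 1.36.0, FastQC 0.11.9 and MultiQC 1.11. The deposited table also gives exon lengths in bases. The strand setting and the handling of reads with several alignments are not given in the sources used here. Of 49677 genes in the table, 26 had empty count cells and were left out.

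Lanes were summed. Per degree of freedom, the chi-square between lanes of 1 library was 1.14 to 1.20, against 3.13 to 13.9 within a group and 85.3 to 114 between groups, so no library was a duplicate. Genes were filtered with filterByExpr (minimum count 10, minimum total 15), TMM-scaled and tested with edgeR 4.0.16 (quasi-likelihood F test, two-sided, Benjamini-Hochberg adjusted, threshold 0.05). TPM came from all counts and exon lengths. Neighbours are the 10 nearest tested genes of at least 5 CPM on either side. DESeq2 1.42.0 and limma 3.58.1 served as alternatives. The edgeR test was tested on simulated data.

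Genes, lists and tests were chosen with earlier results of these data known. Named are all members, ABL1, ABL2, up to 4 called genes per list with the lowest p, and the genes most like the 3 members that changed most (1 of them is not reported here); also named are genes that overlap a member and those said to be chosen later. Count intervals cover counting error only.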

Additional observations from a re-analysis of the deposited data

How the results depend on the processing

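CCND2, CCND3, CDK4, CDKN1A, CDKN1B, CDKN2C and RB1 kept their direction and their call under 14 alternatives: RLE size factors, upper-quartile scaling, TMM from genes outside chromosomes 1, 3, 6, 7, 12 and 17, the DESeq2 Wald test, limma-voom, no filter on low counts, each lane alone and each library left out. CDK6 passed with TMM from genes outside those chromosomes (log2 fold change 0.14, adjusted p = 0.0404 by edgeR), and with single libraries left out its log2 fold change ranged from 0.057 to 0.16; the cause was not tested. The members called numbered 7 or 8 throughout, and all genes called 7468 to 9328. No list changed its number of calls by more than 1.5 times. In CPM without length, the summed level of CDK4 and CDK6 differed by -17.5 CPM with exact p = 0.6, since CDK6 then weighs more. Medians of neighbours moved by at most 0.17 in log2 with 20 or 40 genes on either side; the largest move was that of CDKN2C, whose median turned from 0.068 to -0.10 with 40, and both chromosome 6 genes had 0.54 with 20. No paired analysis was possible because the labels give the groups no shared replicate numbers. Depth limits CCND1, at 20 counts in all libraries.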
